A study of Homo sapiens with 95 samples.

Results

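The genes of heme breakdown and iron handling were followed in AALE cells, an immortalized human bronchial epithelial cell line, by sparse full length (SFL) sequencing, a ribosomal RNA depletion method that pools barcoded samples. The set was a list of 8 symbols among the 27978 listed in each count file: HMOX1, HMOX2, BLVRA, BLVRB, FTL, FTH1, TFRC and SLC40A1. Each symbol occurred in all 95 count files, and all 8 passed the filter of a mean count above 1, as did 14384 genes in all. The study crossed 8 cell lines with 4 chemical treatments to compare sequencing platforms on genetic and chemical perturbations of known lung cancer genes and lung carcinogens. Of the 32 combinations, 31 had 3 samples and FGFR1 with CSC had 2.

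Heme oxygenase opens the heme ring and releases iron, carbon monoxide and biliverdin, and biliverdin reductase turns biliverdin into bilirubin. HMOX1 is the inducible oxygenase and a textbook target of the transcription factor NRF2, while HMOX2 is the constitutive form. Iron enters most cells on transferrin through the receptor TFRC, is stored in the ferritin shell built from heavy (FTH1) and light (FTL) chains, and leaves through ferroportin, SLC40A1. When iron is scarce, the iron regulatory proteins bind hairpins in these messenger RNAs, where they block translation of ferritin and ferroportin and protect the TFRC message from decay. In airway epithelium, which meets inhaled oxidants and iron-bearing particles, ferritin and heme oxygenase are known as protective genes.

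Every sample carried a plasmid or a vector. The CRISPR lines were a FAT1 knockout and a CDKN2A knockout, and their control was cells given the Cas9-EGFP plasmid PX458 without a guide RNA (GFP). The overexpression lines carried NRF2 (the gene NFE2L2), FGFR1, NRG1 or PIK3CA, and their control carried an empty vector with the reporter HcRed. Confluent cells, plated for 24 hours, received benzo[a]pyrene (BaP, a polycyclic aromatic hydrocarbon of smoke) at 173 μM, the tobacco nitrosamine NNK at 490 μM, a condensate of cigarette smoke (CSC) at 24 μg/ml, or the solvent DMSO. This gave 24 DMSO, 23 CSC, 24 BaP and 24 NNK samples, and 12 samples a line except 11 for FGFR1. The length of exposure and whether a line came from 1 clone are not given in the sources used here. The study calls the samples of a combination biological replicates but does not say in the sources used here that each was a separate culture, so p-values measure the spread between these samples. The chemicals were each given at 1 dose, so differences between them hold for these doses only. A count per total in bulk cells cannot separate fewer cells of a kind from less RNA per cell, and RNA was measured, not protein or iron.

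The libraries held 287446 to 2116383 counted reads (median 934235), and their median was 1051108 with DMSO, 825587 with CSC, 836088 with BaP and 753703 with NNK. At these depths, 3 counts corresponded to 1.42 to 10.4 counts per 1000000 reads (CPM). The perturbed genes followed the labels, with NFE2L2 at 1318 to 1781 CPM in the NRF2 line against 193 to 247 CPM in HcRed and FAT1 at 67.3 to 128 CPM in its knockout against 257 to 446 CPM in GFP. CDKN2A lay at 34.6 to 66.9 CPM in its knockout against 78.1 to 147 CPM in GFP, so reads of both targeted genes remained. CYP1A1, a target of the aryl hydrocarbon receptor, lay at 0 to 18.4 CPM with DMSO, 123 to 804 CPM with CSC, 104 to 835 CPM with BaP and 32.7 to 112 CPM with NNK. All 8 basal airway markers were detected and their sum had a median of 9770 CPM with DMSO, 8208 with CSC, 8861 with BaP and 10613 with NNK. Of these 8, 4 were called lower and 2 higher with CSC, 6 and 2 with BaP, and 1 and 4 with NNK. Of all tested genes, 55.1%, 51.0% and 51.8% were called there. Against the control lines, lower and higher calls were 2 and 3 in NRF2, 6 and 0 in FGFR1 and 6 and 2 in NRG1. They were 6 and 1 in PIK3CA, 6 and 1 in FAT1 and 5 and 2 in CDKN2A. The all-gene shares were 22.0% in NRF2, 14.2% in FGFR1, 12.5% in NRG1, 27.9% in PIK3CA, 49.1% in FAT1 and 58.7% in CDKN2A. By contrast, none of 8 erythroid markers reached a mean of 1 CPM and their sum was at most 5.55 CPM in any sample, with HBB at 0. Of 6 fibroblast markers 2 had a mean of at least 1 CPM, and the sum of the list was 7.40 to 34.8 CPM with DMSO, 14.0 to 57.2 with CSC, 12.5 to 68.3 with BaP and 11.7 to 51.6 with NNK. Of 7 macrophage and leukocyte markers 2 (CD14 and CSF1R) had such a mean, and the median sum of that list was 9.12 CPM with DMSO, 9.79 with CSC, 12.6 with BaP and 11.7 with NNK. The part of these shifts in the results below was not tested.

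The hairpins that bind the iron regulatory proteins are shown because FTL and FTH1 carry them at one end of the message and TFRC at the other. They were found in the GRCh37 sequence of the transcripts as a C, 5 bases, the loop letters CAGTG and any sixth base. The bases on each side of the loop had to form 5 base pairs, with G-T pairs allowed, and the capitals mark the 6-base loop. This pattern matched 1 time in the 5′ UTR of FTL, FTH1 and SLC40A1 and 4 times in the 3′ UTR of TFRC. Hairpins of any other form were not looked for, so these are counts of matches.
FTL, chr19:49468592-49468621, plus strand, 5′ UTR: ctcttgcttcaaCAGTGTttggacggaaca
FTH1, chr11:61735045-61735074, minus strand, 5′ UTR: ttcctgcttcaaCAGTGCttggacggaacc
SLC40A1, chr2:190445386-190445415, minus strand, 5′ UTR: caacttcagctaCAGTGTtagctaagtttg
TFRC, chr3:195777849-195777878, minus strand, 3′ UTR: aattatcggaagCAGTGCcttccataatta
TFRC, chr3:195777445-195777474, minus strand, 3′ UTR: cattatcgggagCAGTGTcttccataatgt
TFRC, chr3:195777380-195777409, minus strand, 3′ UTR: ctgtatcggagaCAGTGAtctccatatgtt
TFRC, chr3:195777333-195777362, minus strand, 3′ UTR: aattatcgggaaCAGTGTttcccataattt
The same pattern stood in the first 150 bases and before the start codon in 13 of 20109 transcripts (0.0646%), FTL, FTH1 and SLC40A1 among them. It stood in the first 1500 bases after the stop codon of 37 of 7834 transcripts that long (0.472%). Of these, 1 held at least 4 copies, which was TFRC itself. HMOX1, HMOX2, BLVRA and BLVRB had no match, which says only that these letters were not in those transcripts.

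**Figure D1:**
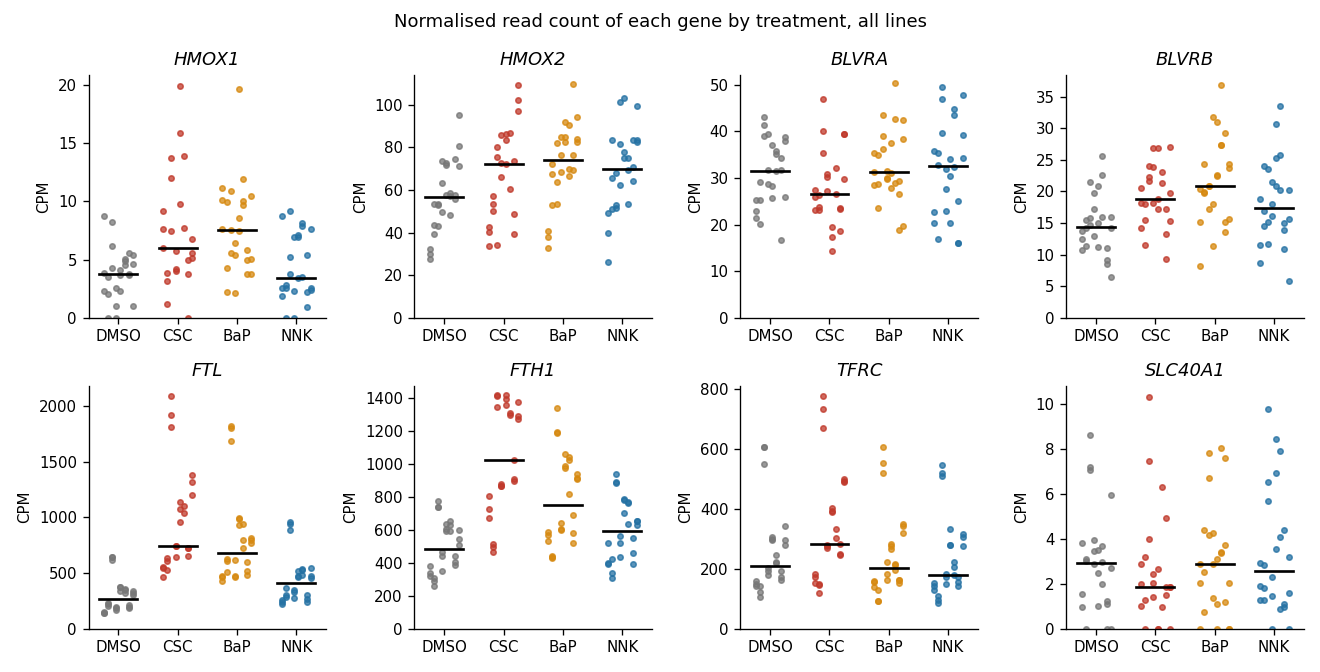
Level of each of the 8 genes (CPM, y axis of each panel) in every sample by treatment (x axis), with the median as a bar. The FTL samples run from 138 to 648 CPM with DMSO and from 466 to 2090 CPM with CSC, while the HMOX1 and SLC40A1 samples lie near the level of 3 counts.

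Compared per length of the canonical transcript in DMSO samples, the ferritin chains stood at the top of the set. The median was 402 CPM per kb for FTH1 and 306 CPM per kb for FTL. The other medians were 42.0 CPM per kb for TFRC, 33.8 for HMOX2, 29.4 for BLVRA, 18.1 for BLVRB, 2.45 for HMOX1 and 0.875 for SLC40A1. Storage genes were thus read far more often per kb than the importer, the enzymes and the exporter, but reads of ferritin processed pseudogenes share this sequence, so the counts of FTL and FTH1 are uncertain by those shared reads.

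FTL had the largest fold of the set with each chemical. FTL, which encodes ferritin light chain (chr19:49468566-49470136, plus strand), had 138 CPM as the lowest, 266 as the median and 648 as the highest level with DMSO. With CSC these levels were 466, 746 and 2090 CPM, with BaP 427, 677 and 1821 CPM, and with NNK 220, 409 and 962 CPM. The ranges overlapped over all lines together, since the lines themselves differed, but within each line every CSC, BaP and NNK sample lay above every DMSO sample of that line. That held in each of 8 lines for 2.02% of all tested genes with CSC, 0.925% with BaP and 1.07% with NNK. In the additive fit of treatment and line over all 95 samples (limma-voom, Benjamini-Hochberg adjusted over 14384 genes), FTL rose 3.32-fold with CSC (95% interval 3.14 to 3.51, adjusted p = 1.74e-75). It rose 2.65-fold with BaP (2.51 to 2.81, adjusted p = 3.13e-63) and 1.49-fold with NNK (1.40 to 1.59, adjusted p = 3.42e-22). Among the 10062 genes whose mean count was 10 or more, its log2 fold change ranked 16th from the top with CSC, 17th with BaP and 399th with NNK.

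FTH1, the ferritin heavy chain that oxidizes iron for storage (chr11:61727190-61735106, minus strand), moved the same way by less. Its lowest, median and highest levels were 261, 484 and 771 CPM with DMSO and 464, 1021 and 1416 CPM with CSC. With BaP they were 431, 752 and 1335 CPM and with NNK 305, 592 and 937 CPM. FTH1 rose 2.12-fold with CSC (2.03 to 2.21, adjusted p = 2.83e-64), 1.55-fold with BaP (1.48 to 1.63, adjusted p = 1.02e-36) and 1.19-fold with NNK (1.14 to 1.25, adjusted p = 7.13e-10).

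Counting the whole set, 6 of the 8 genes were past the threshold with CSC, all higher, where 55.1% of all tested genes were called in either direction and 28.0% were called higher. With BaP 5 were called, all higher, against 51.0% called and 26.1% called higher over all genes. With NNK 4 were called higher and TFRC lower, against 51.8% called, 26.1% higher and 25.7% lower. Since more genes were called than not in each comparison, a call by itself says little here, and the sizes carry the description. The median log2 fold change of the 8 genes was 0.42 with CSC, 0.40 with BaP and 0.22 with NNK, and that of all tested genes was 0.00, 0.01 and 0.00. The 3 comparisons share the same DMSO samples and are not independent of each other.

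**Figure D2:**
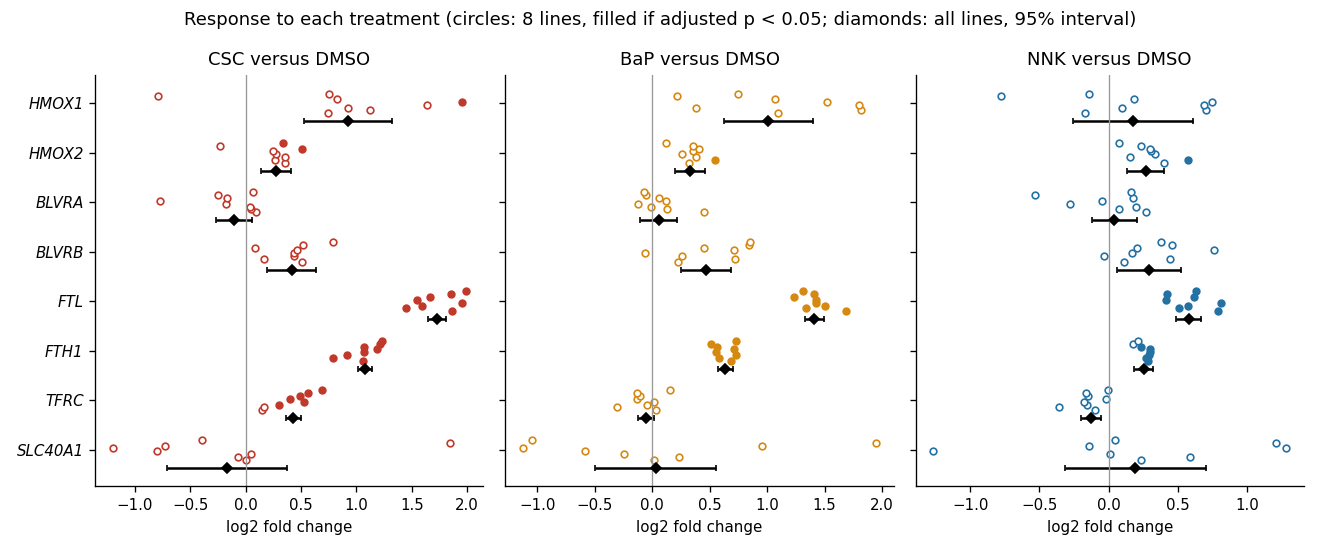
Log2 fold change against DMSO (x axis) of each gene (y axis) with CSC, BaP and NNK, as 8 circles for the lines, filled where the adjusted p was under 0.05, and a diamond with its 95% interval for all lines together. The FTL diamonds stand at 1.73 with CSC, 1.41 with BaP and 0.58 with NNK, and every FTL circle is filled.

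Within single lines (limma-voom, 3 samples against 3, or 2 against 3 for FGFR1 with CSC), FTL was called higher in 8 of 8 lines with each chemical. Being called higher in each of 8 lines held for 1.77% of genes with CSC, 0.689% with BaP and 0.716% with NNK. Its fold ran from 2.72 to 3.97 with CSC, from 2.35 to 3.22 with BaP and from 1.33 to 1.76 with NNK. FTH1 was called higher in 8 of 8 lines with CSC (1.73- to 2.35-fold) and with BaP (1.43- to 1.66-fold). With NNK it was called in 6 of 8 lines (1.13- to 1.23-fold over the 8), where 2.19% of genes were called higher in at least 6.

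As an example in the line without a perturbed gene, the HcRed samples had 198, 166 and 182 CPM of FTL with DMSO and 746, 740 and 644 CPM with CSC. In GFP the values were 147, 143 and 138 CPM with DMSO and 542, 551 and 466 CPM with CSC. In both control lines the lowest CSC sample stood far above the highest DMSO sample. The highest fold of FTL with CSC was in PIK3CA (3.97), and the lowest were in FAT1 (2.72) and NRF2 (2.92).

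A test of any difference in response between the 8 lines (treatment by line interaction, limma-voom F test) called FTL (F = 2.85, adjusted p = 0.0145), where 2.2% of all genes were called. It did not call FTH1 (adjusted p = 0.0505) or TFRC (adjusted p = 0.0915), and the adjusted p of the other 5 genes ran from 0.555 to 0.925. In 18 single contrasts of a line's response with that of its control, limma-voom, edgeR and DESeq2 called 0 of the 144 values of the 8 genes, of which 14 had an unadjusted p under 0.05 by limma-voom, and the 18 together called 0.027% of the values of all genes. The call of FTL was lost without the samples numbered 2 (adjusted p = 0.442), with no filter on low counts (0.180) and with correction for GC content and transcript length (0.213).

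The 2 ferritin chains did not move in step. The ratio of FTL to FTH1 reads in the same library, which does not depend on depth, had a lowest, median and highest value of 0.361, 0.569 and 0.878 with DMSO. It was 0.581, 0.842 and 1.48 with CSC, 0.727, 0.900 and 1.53 with BaP, and 0.427, 0.682 and 1.06 with NNK. Averaged over lines, the ratio was 1.59-fold higher with CSC, 1.72-fold with BaP and 1.25-fold with NNK than with DMSO. A 2-sided permutation test of labels within lines gave p = 1e-05 for each, the smallest that 100000 permutations can give. After Benjamini-Hochberg adjustment of this test over the 3 treatments it was 1e-05. The ratio of FTL to TFRC was tested in the same way and adjusted separately.

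Every treated sample had a higher ratio than every DMSO sample of its line in 8 lines with CSC, in 8 with BaP and in 5 with NNK. From the fits, the log2 response of FTL exceeded that of FTH1 by 0.65 with CSC, 0.77 with BaP and 0.32 with NNK. After correction for GC content and length those differences were 0.43, 0.61 and 0.19. The exons of FTL hold 56.0% GC and those of FTH1 49.5%. The ratio test was chosen after the values of both genes had been seen.

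**Figure D3:**
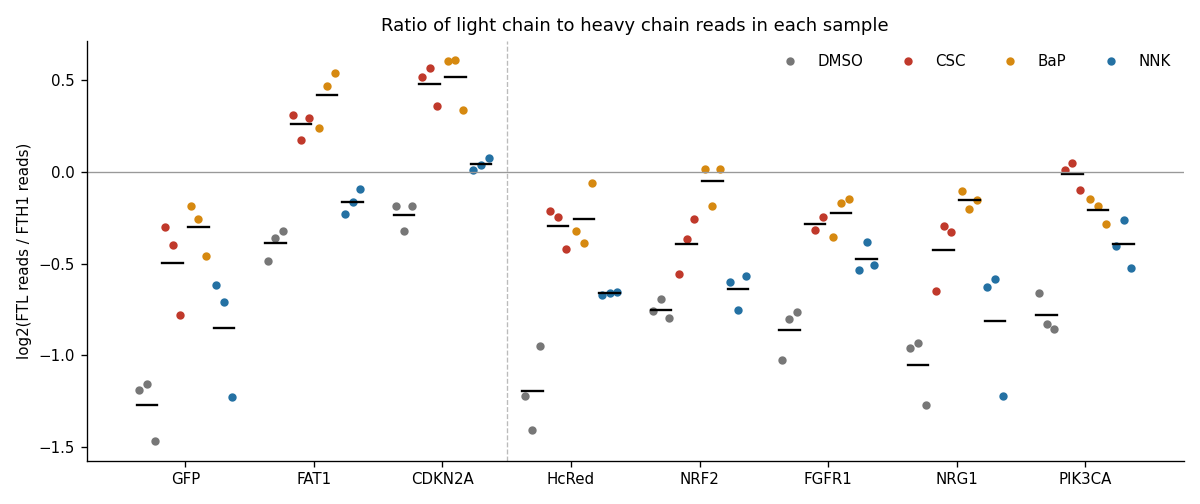
Log2 ratio of FTL reads to FTH1 reads (y axis) in each sample, by line and treatment. Within the CDKN2A and FAT1 lines the DMSO points already lie above those of the other lines, and CSC and BaP points lie above the DMSO points in each of the 8 lines.

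Heme breakdown genes were measured with fewer reads. HMOX1, the inducible heme oxygenase (chr22:35776354-35790207, plus strand), had a lowest, median and highest level of 0, 3.80 and 8.73 CPM with DMSO and 0, 5.96 and 19.9 CPM with CSC. With BaP the levels were 2.12, 7.51 and 19.6 CPM and with NNK 0, 3.44 and 9.14 CPM. The median library held 4, 6, 6.5 and 3 HMOX1 reads, so single libraries lay near the floor of 3 counts and the groups overlapped, while the groups summed to 97, 160, 158 and 87 reads. Over all lines HMOX1 rose 1.90-fold with CSC (1.45 to 2.503, adjusted p = 3.22e-05) and 2.02-fold with BaP (1.54 to 2.64, adjusted p = 5.83e-06). With NNK the fold was 1.13 (0.836 to 1.53, adjusted p = 0.521).

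Within lines HMOX1 was called in NRF2 with CSC alone, where 9.1% of genes were called. The NRF2 samples held 4, 3 and 2 HMOX1 reads with DMSO and 15, 11 and 8 with CSC, a fold of 3.89 with a log2 standard error of 0.536 (adjusted p = 0.00872). The 3 CSC samples lay above the 3 DMSO samples, but the call was lost with DESeq2 (adjusted p = 0.0753), without replicate 1 (0.116) and without replicate 2 (0.0568). The difference of that response from that of HcRed was not past the threshold.

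HMOX2, the constitutive heme oxygenase (chr16:4524691-4560348, plus strand), had median levels of 56.5 CPM with DMSO, 72.0 with CSC, 74.2 with BaP and 69.9 with NNK, and its ranges overlapped widely (27.7 to 95.2 CPM with DMSO, 33.6 to 109 with CSC). It rose 1.21-fold with CSC, 1.26-fold with BaP and 1.20-fold with NNK over all lines (limma-voom adjusted p = 0.000199, 1.03e-05 and 0.000364). Within lines it was called with CSC in FGFR1 (11.7% of genes called there) and PIK3CA (22.6%), and in FAT1 with BaP (15.1%) and NNK (10.2%).

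BLVRB, the biliverdin reductase that also acts as flavin reductase (chr19:40953672-40971671, minus strand), had medians of 14.4 CPM with DMSO, 18.7 with CSC, 20.9 with BaP and 17.5 with NNK. It rose 1.34-fold with CSC, 1.38-fold with BaP and 1.22-fold with NNK (adjusted p = 0.000729, 0.000164 and 0.0288). The calls of HMOX2 and BLVRB did not hold with correction for GC content and length, which left HMOX2 at log2 values of 0.02, 0.10 and 0.06 and BLVRB at 0.07, 0.18 and 0.04. Over all genes the correction left 4444 of 13487 called with CSC, 3319 with BaP and 2391 with NNK. Without it these were 7922, 7337 and 7455 of 14384. Without the samples of any 1 replicate number, BLVRB with NNK was not called (adjusted p = 0.0583 to 0.131). HMOX1 stayed called under that correction, at 0.60 with CSC (adjusted p = 0.0124) and 0.72 with BaP (adjusted p = 0.00316).

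BLVRA, the main biliverdin reductase of adult tissue (chr7:43798279-43846941, plus strand), had medians of 31.6, 26.5, 31.2 and 32.6 CPM with DMSO, CSC, BaP and NNK. Its folds of 0.930 with CSC (interval 0.829 to 1.04), 1.04 with BaP (0.928 to 1.16) and 1.03 with NNK (0.918 to 1.15) were not past the threshold over all lines or within any line. These intervals reach no further than 0.829-fold and 1.16-fold at these doses.

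TFRC, the transferrin receptor (chr3:195739382-195809024, minus strand), rose with CSC and fell with NNK. Its lowest, median and highest levels were 104, 210 and 606 CPM with DMSO, 119, 282 and 776 with CSC, 92.5, 203 and 607 with BaP, and 85.8, 180 and 545 with NNK. It rose 1.35-fold with CSC (1.28 to 1.41, adjusted p = 2.71e-22) and fell to 0.914-fold with NNK (0.869 to 0.962, adjusted p = 0.00201). With BaP the fold was 0.963 (0.915 to 1.01, adjusted p = 0.216). After correction for GC content and length the NNK difference was lost (log2 −0.01, adjusted p = 0.950) and BaP turned to higher (log2 0.12, adjusted p = 0.0121), while CSC stood at 0.57.

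With CSC, TFRC was called higher in 6 of 8 lines, where 4.5% of genes were called in at least 6, and not in GFP or FAT1. The GFP samples had 143, 147 and 160 CPM with DMSO and 152, 172 and 181 CPM with CSC, which overlap. The HcRed samples had 201, 179 and 192 CPM with DMSO and 270, 277 and 280 CPM with CSC, which do not. With BaP and with NNK it was called in 0 of 8 lines by limma-voom, edgeR or DESeq2, with an unadjusted p under 0.05 in 2 lines for each chemical by limma-voom.

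SLC40A1, ferroportin, the known iron exporter of the cell (chr2:190425316-190448484, minus strand), had medians of 2.91, 1.87, 2.86 and 2.56 CPM with DMSO, CSC, BaP and NNK. Of the 95 samples 13 had no SLC40A1 read and the median library had 2. Its folds of 0.892 with CSC (0.613 to 1.30), 1.02 with BaP (0.709 to 1.47) and 1.14 with NNK (0.802 to 1.62) were not past the threshold. A change within those bounds was not detectable at this depth.

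Set against each other at the doses used, CSC gave more of the ferritin and TFRC messages than BaP did. FTL was 1.25-fold, FTH1 1.36-fold and TFRC 1.40-fold higher with CSC than with BaP (limma-voom adjusted p = 2.52e-10, 5.98e-24 and 1.49e-23), 3 called genes where 16.5% of all were called. HMOX1 did not differ past the threshold (fold 0.943, interval 0.717 to 1.24, adjusted p = 0.828). CSC exceeded NNK in FTL (2.22-fold), FTH1 (1.77-fold), HMOX1 (1.68-fold) and TFRC (1.47-fold), where 23.7% of genes were called. BaP exceeded NNK in FTL (1.78-fold), HMOX1 (1.78-fold) and FTH1 (1.30-fold), where 11.8% were called. The HMOX1 calls against NNK were lost without replicate 1 for CSC (adjusted p = 0.0720) and without replicate 3 for BaP (0.0681).

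**Figure D4:**
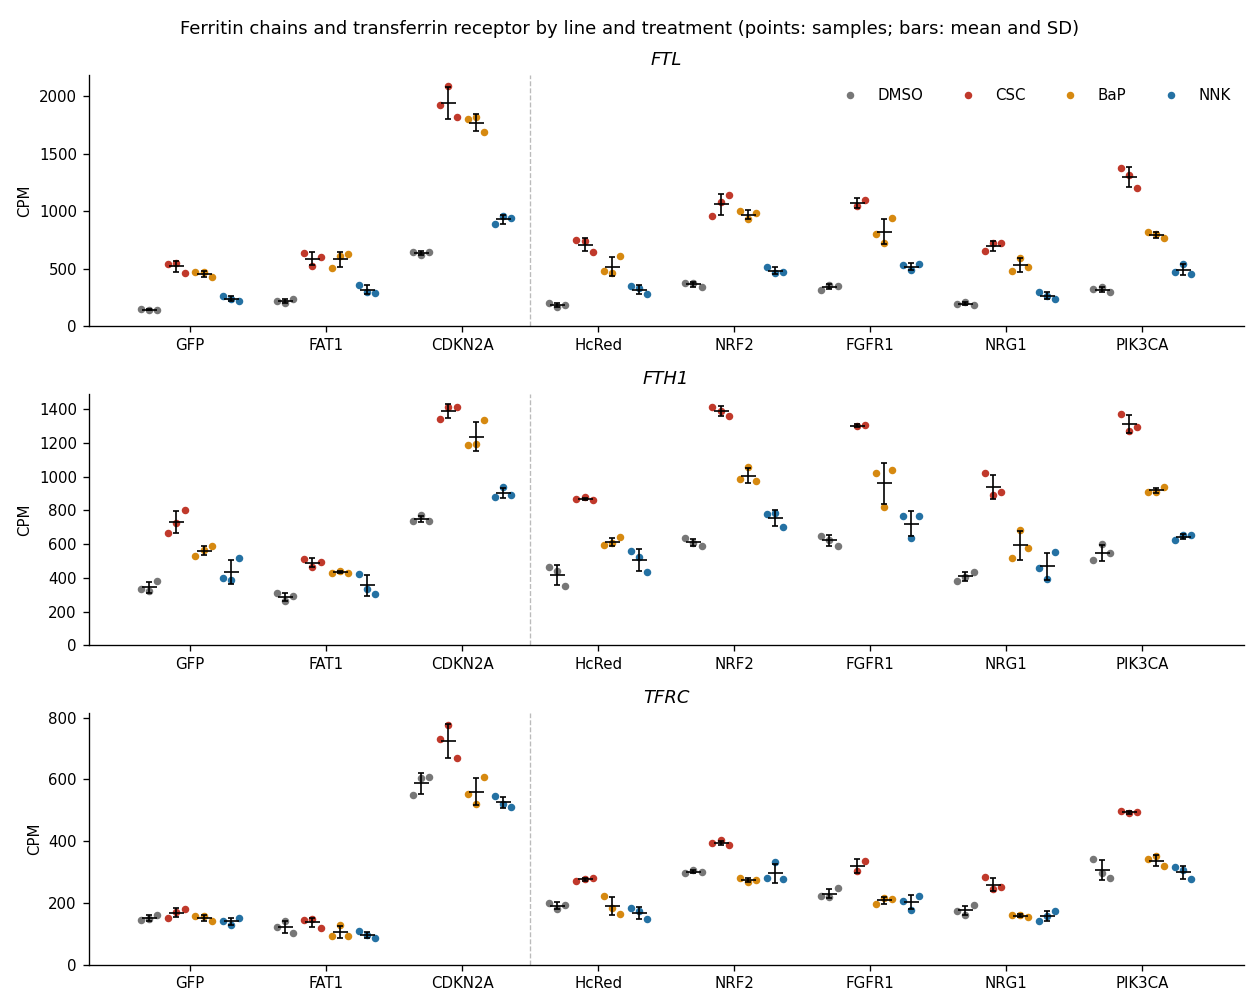
Mean level (CPM, y axis) of FTL, FTH1 and TFRC in the 8 lines (x axis) with each treatment, error bars SD of 3 samples (2 for FGFR1 with CSC), and a dashed line between the CRISPR lines and the overexpression lines. CDKN2A stands highest for each gene with DMSO, at 637 CPM of FTL, 749 of FTH1 and 587 of TFRC.

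Among the lines with DMSO, the CDKN2A knockout held the most ferritin and transferrin receptor message. CDKN2A encodes p16INK4a and p14ARF, which restrain the cell cycle. FTL measured 648, 616 and 648 CPM in CDKN2A with DMSO and 147, 143 and 138 CPM in its control GFP. TFRC measured 549, 605 and 606 CPM against 143, 147 and 160 CPM, and FTH1 738, 771 and 738 CPM against 334, 320 and 382 CPM. None of the 3 genes overlapped between the lines. Of all genes, 37.2% were called in this comparison. The share of all genes without overlap between lines is not given, here or for the later comparisons of lines. A lack of overlap between lines therefore describes these samples and does not set these genes apart from others. In this comparison of 3 against 3 samples, FTL was 4.44-fold, TFRC 3.85-fold and FTH1 2.14-fold higher.

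Over all treatments, 12 samples against 12, 6 of the 8 genes were higher in CDKN2A and none lower, where 58.7% of all genes were called and 29.9% were called higher. The folds were 3.98 for TFRC (adjusted p = 1.65e-69), 3.94 for FTL (2.81e-61), 3.18 for SLC40A1 (2.12e-05), 2.12 for FTH1 (3.53e-45), 1.60 for BLVRA (1.45e-07) and 1.55 for HMOX2 (1.42e-07). Among the 10062 genes whose mean count was 10 or more, TFRC ranked 65th and FTL 69th by log2 fold change. BLVRB (1.25-fold, 0.9999 to 1.57) and HMOX1 (1.26-fold, 0.869 to 1.83) were not past the threshold. BLVRB was called higher there with DESeq2 (adjusted p = 0.0490), with the fit of 32 groups (0.0446) and without the samples numbered 2 (0.0324). With DMSO alone the same 6 were called, where 37.2% of genes were.

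Over all treatments SLC40A1 was called in CDKN2A and in none of the other 5 comparisons of a line with its control, and whether the lines differ in this was not tested. In FGFR1 its log2 fold change ran from −0.40 to 1.28 when samples of 1 number were left out, and without number 3 it was called higher (adjusted p = 0.0459). Its levels ran from 4.0 to 10.3 CPM over the 12 CDKN2A samples (median 7.11) and from 0 to 3.82 CPM in GFP (median 1.94), with no overlap. With DMSO the samples held 10, 7 and 8 reads against 1, 4 and 2. That DMSO comparison gave 3.53-fold (adjusted p = 0.0114), and it was lost with DESeq2 (adjusted p = 0.0911), without GFP replicate 1 (0.0583) and without GFP replicate 3 (0.0633). The interval of the fold over all treatments was 1.95 to 5.17.

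The FAT1 knockout, in which the gene of a large protocadherin was targeted, split the set. Over all treatments HMOX2 was 1.57-fold and FTL 1.24-fold higher than in GFP (adjusted p = 1.51e-07 and 4.8e-05). FTH1 fell to 0.763-fold, TFRC to 0.759-fold and HMOX1 to 0.441-fold (adjusted p = 6.31e-10, 4.58e-08 and 0.000916). These 5 calls stand where 49.1% of all genes were called. FAT1 samples had 220, 203 and 232 CPM of FTL and 308, 261 and 290 CPM of FTH1 with DMSO, so FTL lay above and FTH1 below every GFP sample.

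HMOX1 ran from 0 to 9.97 CPM in FAT1 (median 2.67) and from 1.89 to 11.2 CPM in GFP (median 7.63), which overlap, and its call was lost without the samples numbered 1 (log2 −0.64, adjusted p = 0.162). With DMSO alone 4 genes were called, where 26.3% of genes were: FTL (1.51-fold), HMOX2 (1.47-fold), FTH1 (0.816-fold) and TFRC (0.799-fold). Of these, FTL alone stayed called with DESeq2. Leaving out a library ended the call of TFRC (FAT1 replicate 1 or 3, GFP replicate 3), HMOX2 (FAT1 replicate 2, GFP replicate 1 or 2) or FTH1 (FAT1 replicate 2, GFP replicate 3), and left 2 or 3 genes called.

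**Figure D5:**
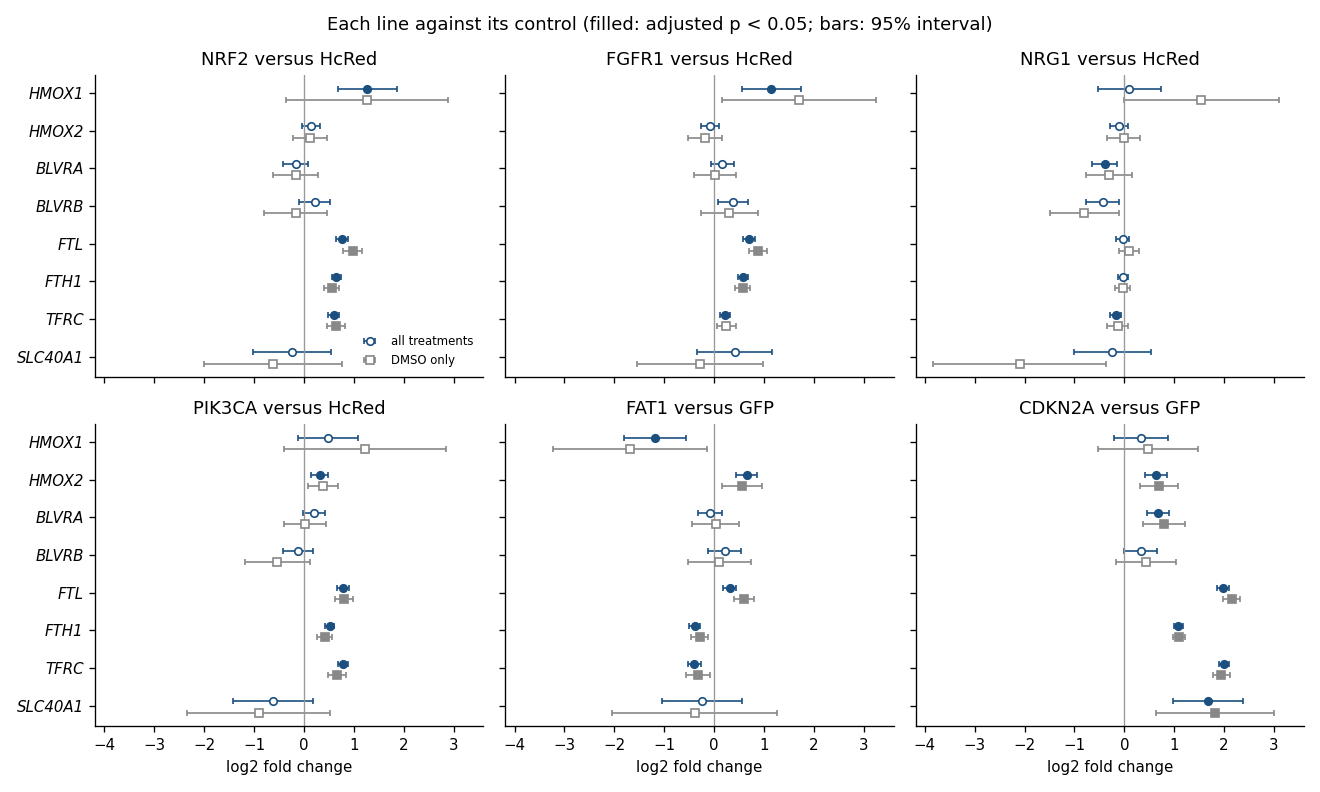
Log2 fold change of each gene (y axis) in each line against its own control (x axis), as circles over all treatments with 95% intervals and squares for the DMSO samples alone. In CDKN2A the FTL and TFRC circles stand at 1.98 and 1.99, and in NRG1 the FTL circle stands at −0.03.

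Overexpression of NRF2, the activator of antioxidant genes, went with 4 higher genes against HcRed over all treatments, where 22.0% of genes were called and 9.98% were called higher. HMOX1 was 2.41-fold higher (1.60 to 3.63, adjusted p = 0.00054), FTL 1.71-fold (6.03e-22), FTH1 1.57-fold (1.05e-24) and TFRC 1.51-fold (7.33e-19). HMOX1 ran from 2.32 to 19.9 CPM in NRF2 (median 7.28) and from 0 to 6.93 CPM in HcRed (median 3.30), which overlap. With DMSO, FTL measured 375, 374 and 340 CPM in NRF2 against 198, 166 and 182 CPM in HcRed. FTL (1.97-fold), TFRC (1.56-fold) and FTH1 (1.47-fold) were called there, where 7.16% of genes were.

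The FGFR1 line, which overexpresses a fibroblast growth factor receptor, had the same 4 genes called higher, where 14.2% of genes were called. HMOX1 was 2.22-fold (1.47 to 3.35, adjusted p = 0.00338), FTL 1.62-fold (1.94e-18), FTH1 1.496-fold (7.84e-21) and TFRC 1.16-fold (0.00199) higher than in HcRed. TFRC was not called without the samples numbered 3 (adjusted p = 0.275). With DMSO, FTL (1.84-fold) and FTH1 (1.49-fold) were called, where 1.86% of genes were.

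In the PIK3CA line, which overexpresses the catalytic subunit of a lipid kinase, 4 genes were higher where 27.9% of genes were called. FTL and TFRC were each 1.71-fold (adjusted p = 4.15e-23 and 5.94e-29), FTH1 1.43-fold (9.38e-19) and HMOX2 1.24-fold (0.00267) higher. With DMSO, FTL (1.74-fold), TFRC (1.58-fold) and FTH1 (1.33-fold) were called, where 8.6% of genes were. HMOX1 was not called in PIK3CA (1.40-fold, 0.917 to 2.13).

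The NRG1 line, which overexpresses an ERBB receptor ligand, showed no ferritin difference past the threshold. FTL was 0.977-fold (0.894 to 1.07) and FTH1 0.977-fold (0.912 to 1.05) of HcRed. BLVRA (0.761-fold, adjusted p = 0.0202) and TFRC (0.889-fold, adjusted p = 0.0282) were called lower, where 12.5% of genes were called. BLVRB (log2 −0.44) was not called, but it was called lower with edgeR (adjusted p = 0.0373), DESeq2 (0.0411) and the fit of 32 groups (0.0415). Without the samples of 1 replicate number BLVRA was not called for any number (adjusted p = 0.0989 to 0.105), and TFRC was not called without number 1 (0.451) or 2 (0.119). With DMSO 0 of the 8 genes were called, where 2.04% of genes were, although SLC40A1 and BLVRB had an unadjusted limma-voom p of 0.0181 and 0.0243, and edgeR and DESeq2 called 0 as well. The 4 overexpression lines share the HcRed samples and the 2 knockouts share the GFP samples.

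In order of the mean level with DMSO (± SD, n = 3), FTL measured 143 ± 4.36 CPM in GFP, 182 ± 16.2 in HcRed, 196 ± 15.1 in NRG1 and 219 ± 14.6 in FAT1. It went on with 319 ± 18.2 CPM in PIK3CA, 342 ± 20.98 in FGFR1, 363 ± 20.0 in NRF2 and 637 ± 18.6 in CDKN2A. Samples of neighbouring lines overlapped except between GFP and HcRed, between FAT1 and PIK3CA and between NRF2 and CDKN2A. The order of FTH1 ran from 287 ± 23.9 CPM in FAT1 over 345 ± 32.6 in GFP to 749 ± 19.5 in CDKN2A, and that of TFRC from 122 ± 18.4 CPM in FAT1 over 150 ± 9.06 in GFP to 587 ± 33.0 in CDKN2A. The control lines themselves thus differed, and each line is read against its own control.

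The FTL to FTH1 ratio with DMSO also differed by line. It was 0.361 to 0.448 in GFP, 0.377 to 0.518 in HcRed and 0.415 to 0.523 in NRG1. It was 0.714 to 0.800 in FAT1 and 0.798 to 0.878 in CDKN2A. The ratio in both knockouts lay above every sample of the 6 other lines, whose highest value was 0.632.

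Among the other genes, read from lists of general knowledge, the other known NRF2 targets rose with the ferritin genes with CSC and BaP. The aryl hydrocarbon receptor targets, given below for comparison, rose as well, by a median log2 of 3.03 with CSC and 3.09 with BaP. Of the NRF2 targets, 8 of 8 rose with CSC (median log2 0.80) and with BaP (0.76), where the median of all genes was 0.00 and 0.01. Examples with CSC were the quinone reductase NQO1 (1.37 ± 0.0447 SE), the sulfiredoxin SRXN1 (0.81 ± 0.0506) and the thioredoxin reductase TXNRD1 (0.81 ± 0.0327). With NNK 4 rose and the cystine transporter SLC7A11 fell by 0.18, and 7 rose and none fell with correction for GC content and length. Over all genes that correction left 2391 of 13487 called with NNK, 1446 of them higher. In the NRF2 line 2 of 8 rose, NQO1 by 0.24 and TXNRD1 by 0.18, and in FGFR1 5 rose. In FAT1 6 fell, with NQO1 at −1.27 and the glutamate-cysteine ligase GCLC at −0.92, while FTL was higher there. In CDKN2A 4 rose and NQO1 fell (−0.54). Of all genes, 55.1% were called with CSC, 51.0% with BaP and 51.8% with NNK. In the lines the share was 22.0% in NRF2, 14.2% in FGFR1, 49.1% in FAT1 and 58.7% in CDKN2A.

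Counts of the lists that follow stand against the 55.1% of all genes called with CSC, 51.0% with BaP, 51.8% with NNK, 49.1% in FAT1 and 58.7% in CDKN2A, and no test compared the lists. Counts with correction for GC content and length stand against fewer calls over all genes: 4444 of 13487 with CSC, 3319 with BaP and 2391 with NNK. These were 2244 higher and 2200 lower with CSC, 1781 and 1538 with BaP, and 1446 and 945 with NNK. Of 12 heme synthesis genes tested, 4 rose and 3 fell with CSC, 5 rose and 1 fell with BaP, and 1 rose and 1 fell with NNK. ALAS1, the rate-limiting first enzyme, rose by 0.73 ± 0.0676 on the log2 scale with BaP (adjusted p = 3.71e-18) and by 0.21 ± 0.0722 with CSC, and it was lower with CSC than with BaP (−0.52, adjusted p = 1.84e-09). ABCB6, a porphyrin transporter, rose by 0.52 with CSC and 0.59 with BaP. With correction for GC content and length 0 rose with CSC and 3 with BaP, ALAS1 (0.65) and ABCB6 (0.36) among them. In the lines, ABCB6 was lower in PIK3CA (−1.93).

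Of 11 tested genes of heme transport and heme sensing, 3 rose and 4 fell with CSC, 3 rose and 3 fell with BaP and 1 rose and 1 fell with NNK. SLC48A1, which carries heme out of lysosomes, rose by 0.69 ± 0.0898 with CSC, 0.46 ± 0.0927 with BaP and 0.30 ± 0.0976 with NNK, and was higher in the NRF2 line by 0.89. In that line the heme-sensing repressor BACH1 was lower (−0.30).

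Of 13 tested genes of iron uptake and transport, 5 rose and 1 fell with CSC, 2 rose and 3 fell with BaP, and 3 rose and 2 fell with NNK. The mitochondrial iron importer SLC25A28 rose by 0.31 with CSC, 0.64 with BaP and 0.38 with NNK, and the ferric reductase CYBRD1 fell by 0.34 with CSC. In CDKN2A, where TFRC was higher, CYBRD1 was lower (−1.23), as was the iron chaperone PCBP2 (−0.92).

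Of 9 tested genes of iron regulation, export partners and ferritin turnover, 2 rose and 3 fell with CSC, 1 rose and 3 fell with BaP and 2 rose and 3 fell with NNK. IREB2, an iron regulatory protein, fell by 0.16, 0.20 and 0.27 with CSC, BaP and NNK. FBXL5, which targets that protein for degradation, rose by 0.48 ± 0.0511 with BaP. In CDKN2A the other iron regulatory protein, ACO1 (−0.60), and the ferritin autophagy receptor NCOA4 (−0.42) were lower. With correction for GC content and length none of the 9 fell with CSC or BaP, and FBXL5 rose with CSC, BaP and NNK (0.34, 0.69 and 0.18).

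Of 16 tested genes of iron-sulfur cluster assembly, 1 rose and 3 fell with CSC, 2 rose and 2 fell with BaP, and 1 rose and 2 fell with NNK. The glutaredoxin GLRX5 rose by 0.24 and the chaperone HSPA9 fell by 0.20 with CSC. In CDKN2A 4 were higher and 5 lower, among them the ferredoxin FDX1 (1.09) and the assembly factor ISCA1 (−0.78). For comparison, all 4 aryl hydrocarbon receptor targets rose with each chemical, and limma-voom called 0 of them between CSC and BaP, against 2 by edgeR and 1 by DESeq2.

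A form of the antioxidant response element, the short DNA element that NRF2 binds with small MAF proteins, was looked for upstream of the 8 genes. Whether NRF2 had a part in any change described here was not tested. The letters TGACTCAGC, read on both strands, stood within 5000 bases upstream of 4 of the 8 genes and of 6.44% of 20274 genes. Within 1000 bases they stood upstream of 0 of the 8 genes and of 1.32% of genes, and within 10000 bases of 4 and of 12.8%. The form was chosen with the 8 genes known and no test compared these shares, so they are not evidence about the set. The matches within 5000 bases are shown in capitals with 10 bases on each side. HMOX1 had further matches 8990, 9019 and 9077 bases upstream, which are not shown. FTL, HMOX1 and BLVRA are in GRCh37 plus strand letters and FTH1 is in minus strand letters.
FTL, 1367 bases upstream, chr19:49467189-49467217: gagctcagcaTGACTCAGCagtcgctgcc
FTH1, 4417 bases upstream, chr11:61739505-61739533: ctagcagagtGCTGAGTCAcggtgggaca
HMOX1, 3940 bases upstream, chr22:35773139-35773167: gctagattttGCTGAGTCAccagtgcctc
BLVRA, 1895 bases upstream, chr7:43796374-43796402: tgtactggtcTGACTCAGCaagtgaacat
GCTGAGTCA is the same element on the other strand. BLVRA carries it and was not past the threshold with any chemical, and the looser TGACNNNGC stood within 5000 bases upstream of all 8 genes and of 83.7% of genes, and within 1000 bases of 1 of the 8 and of 32.7%. A match is a description of letters and no binding was measured.

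The genes whose pattern over the 32 combinations was most like that of a member were named by Pearson's correlation of mean log2 CPM, as a description over points that share libraries and treatments. FTL was most like SQSTM1 (r = 0.948), which encodes the autophagy receptor p62, then FTH1 (0.909). FTH1 was most like FTL, then KIAA0930 (0.861) and NDRG1 (0.845). TFRC was most like ADGRL2 (0.887), ODC1 (0.885) and CBL (0.869), and its own r was 0.808 with FTH1 and 0.700 with FTL. HMOX2 was most like TRPC4AP (0.933), RAB11FIP3 (0.928) and XPO6 (0.916). The best matches of the less counted genes were lower, with NXPE3 (0.725), SERPINI1 (0.717) and RPL39L (0.679) for BLVRA, and ITPKC (0.757), TBC1D9 (0.745) and PLXNA3 (0.738) for BLVRB.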

How the data were processed

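The deposited files hold counts: whole reads per gene symbol for 27978 genes in each of 95 SFL libraries, not normalized by the authors. The submitters' processing notes name cutadapt 1.12, FastQC 0.11.5, STAR 2.5.2b, featureCounts of Subread and the build hg19. The paper's methods give RefSeq genes, and the strand setting of the counting is not given in the sources used here, so reads of overlapping antisense genes cannot be told apart. Single reads without molecular identifiers are counted, so the floor of 3 counts covers counting error only.

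Samples were grouped by the labels. Counts were scaled by TMM (edgeR 4.0.16), genes with a mean count above 1 were kept, and limma-voom (limma 3.58.1, R 4.3.3) was fitted across all of them with Benjamini-Hochberg adjustment at 0.05, as a treatment plus line model over 95 samples, a treatment by line model, and pairs of groups. Intervals of folds are 95% intervals from limma's moderated t. CPM are counts over the TMM-scaled library size. The scripts were tested on simulated data. Alternatives were DESeq2 1.42.0 (Benjamini-Hochberg over the tested genes, no independent filtering) and its size factors, the quasi-likelihood test of edgeR, other filters, the 10000 most variable genes, correction for GC content and length (loess, span 0.3, which used the 93.8% of tested genes with a value), libraries of at least 500000 reads, a replicate block, a 32-group fit and leaving out replicates. Symbols were matched to GRCh37 (GENCODE) models, 86.9% with a match, for positions, lengths and sequences. In a chi-square test the 94 pairs of samples within a group differed by more than sampling noise (lowest chi-square per degree of freedom 1.13), so none was treated as a repeat deposit of 1 library.

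The members and lists were chosen with earlier results of these data known. Besides the 8 genes, the text names the perturbed genes and CYP1A1, up to 4 genes a list with the largest change among those called whose mean count was 10 or more, and the 3 genes most like each member with such a mean. Some genes these limits pick are not reported here. A gene named outside these limits would be marked as chosen after its values were seen.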

Additional observations from a re-analysis of the deposited data

Results flagged for a closer look

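The response of FTL to the chemicals differed between the 8 lines in a test of the difference itself, the treatment by line interaction over all samples (limma-voom F test, adjusted p = 0.0145). The fold of FTL with CSC ran from 2.72 in FAT1 to 3.97 in PIK3CA, and the level of FTL rose in 8 of 8 lines with each chemical. No single contrast of a line with its control was past the threshold, and edgeR (adjusted p = 5.57e-05) and DESeq2 (6.09e-05) gave lower values. The call was lost without the samples numbered 2 (adjusted p = 0.442), with no filter on low counts (0.180) and with correction for GC content and length (0.213).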

How the results depend on the processing

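The number of the 8 genes called was recomputed for 23 comparisons under 292 alternatives, of which 276 stayed within 1.5 times and 16 did not. With correction for GC content and length, NNK against DMSO over all lines had 2 called genes in place of 5, both higher. Calls over all genes fell there as well, from 7455 of 14384 to 2391 of 13487. With the same correction the response of TFRC to BaP turned from −0.05 to 0.12 on the log2 scale. FAT1 against GFP with DMSO had 4 called genes, but 2 with that correction, 2 among the 10000 most variable genes, 1 with DESeq2 and 2 to 3 without single replicates. NRG1 against HcRed over all treatments had 2, and 0 to 1 without single replicates. NNK against DMSO summed over the 8 lines had 15, but 9 with DESeq2, and 10 to 12 without single replicates. The treatment by line interaction had 1 called gene, but 0 with no filter on low counts, 2 with DESeq2 size factors, 2 with libraries of at least 500000 reads, 2 with a replicate block and 0 to 2 without single replicates. The cause of these shifts was not tested. The replicate block left 19 of 23 counts as they were and moved 25 to 23 (CSC), 17 to 18 (BaP) and 15 to 16 (NNK) for the sums over lines. Same-numbered samples correlated by −0.0347 to 0.0887 in their deviations from the group means, with 0 of 30 comparisons in which every pair was over 0.1. This check covered all tested genes, those with few reads included, so it cannot show whether same-numbered samples shared a batch. Of 1850 values of single genes, 1745 kept direction and side of the threshold, 41 lost a call, 9 gained one, 1 reversed and 54 uncalled values changed sign. Depth limits HMOX1 and SLC40A1, whose median library held 5 and 2 reads.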
